A study of Mus musculus with 2 samples.

Results

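The interleukin-1 family and its receptors were examined in the mouse rib callus 4 days after injury, as 10 genes of the 31054 features counted in each library. The genes were taken by name: the ligands Il1a, Il1b, Il33 and Il18, the antagonists Il1rn and Il18bp, and the receptor genes Il1r1, Il1rap, Il1rl1 and Il1r2. All 10 were found in the feature list and had UMIs (unique molecular identifiers, each standing for 1 captured transcript) in both libraries. The study asked how loss of the Hedgehog receptor component Smo from Sox9+ lineage cells alters the early callus. It used scRNAseq of calluses taken after large-scale rib resection from adult mice. The control group was Sox9:CreER;R26:tdT;Smof/+ and the Smo cKO group was Sox9:CreER;R26:tdT;Smof/f. Animals of both genotypes carried the tamoxifen-inducible Sox9:CreER and the tdTomato reporter and received tamoxifen before the injury, and the control animals also carried 1 floxed Smo allele. Recombination was limited to cells that had expressed Sox9 by then, so cells without a Sox9 history were not targeted by the design, and recombination was not measured here. Cells of 3 animals were pooled for each genotype, giving 1 library per genotype. No test between genotypes was therefore possible, and each interval below is a 95% interval that covers counting error only.

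Interleukin-1 alpha and interleukin-1 beta act through the receptor encoded by Il1r1, which needs the accessory protein encoded by Il1rap to signal through Myd88 and NF-kB. Il1rn encodes a secreted antagonist that occupies the same receptor, and Il1r2 encodes a decoy receptor that binds ligand without signalling. Interleukin-33 is a nuclear alarmin of stromal cells that is released on damage and is read by the receptor encoded by Il1rl1 (ST2), while interleukin-18 is neutralized by the protein encoded by Il18bp. After bone injury these cytokines are best known from the inflammatory phase, when neutrophils and macrophages enter the wound.

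The sequence before the annotated start is shown for the ligands Il1a, Il1b and Il33 and for the receptor gene Il1rl1. Il1a and Il1b stand for genes of blood-derived cells, and Il33 and Il1rl1 for genes of connective cells. Il1rn and Il1r1 divided about as clearly as some of these and are not shown. Each sequence runs 5′ to 3′ on the strand of the gene and holds the 250 bases that end 1 base before a RefSeq start on GRCm38.p6, and capitals mark motif matches. Il1a and Il1b lie on the minus strand, Il33 and Il1rl1 on the plus strand, and Il33 and Il1rl1 have 2 starts each.
Il1a, chr2:129309973-129310222: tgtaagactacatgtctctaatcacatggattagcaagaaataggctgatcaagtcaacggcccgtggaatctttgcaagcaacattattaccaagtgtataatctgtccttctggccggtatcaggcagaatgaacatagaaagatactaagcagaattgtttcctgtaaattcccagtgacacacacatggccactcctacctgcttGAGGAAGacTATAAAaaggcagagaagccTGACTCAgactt
Il1b, chr2:129371140-129371389: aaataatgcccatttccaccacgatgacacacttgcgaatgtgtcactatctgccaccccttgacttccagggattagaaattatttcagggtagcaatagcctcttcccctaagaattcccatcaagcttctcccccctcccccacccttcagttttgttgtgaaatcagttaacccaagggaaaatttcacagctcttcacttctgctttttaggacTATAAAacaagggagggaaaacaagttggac
Il33 start 1, chr19:29924863-29925112: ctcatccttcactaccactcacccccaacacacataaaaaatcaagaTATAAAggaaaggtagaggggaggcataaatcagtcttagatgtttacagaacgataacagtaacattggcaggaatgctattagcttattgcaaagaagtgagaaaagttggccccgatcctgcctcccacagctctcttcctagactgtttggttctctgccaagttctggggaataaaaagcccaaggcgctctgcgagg
Il33 start 2, chr19:29945540-29945789: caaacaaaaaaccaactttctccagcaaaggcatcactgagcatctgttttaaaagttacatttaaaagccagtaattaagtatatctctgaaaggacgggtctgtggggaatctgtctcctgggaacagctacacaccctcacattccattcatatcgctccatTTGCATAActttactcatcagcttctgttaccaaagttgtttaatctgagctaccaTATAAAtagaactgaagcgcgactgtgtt
Il1rl1 start 1, chr1:40429320-40429569: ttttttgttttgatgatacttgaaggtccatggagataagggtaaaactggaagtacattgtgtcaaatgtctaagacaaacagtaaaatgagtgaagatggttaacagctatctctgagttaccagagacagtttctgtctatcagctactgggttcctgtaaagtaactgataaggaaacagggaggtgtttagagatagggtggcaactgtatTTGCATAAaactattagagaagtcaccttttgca
Il1rl1 start 2, chr1:40439379-40439628: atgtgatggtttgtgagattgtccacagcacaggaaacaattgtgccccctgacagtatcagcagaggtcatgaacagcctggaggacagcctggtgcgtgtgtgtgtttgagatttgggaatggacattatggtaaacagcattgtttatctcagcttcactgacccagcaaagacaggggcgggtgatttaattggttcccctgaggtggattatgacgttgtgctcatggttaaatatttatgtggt
Across 32851 mouse starts, the 5 motifs searched were found in 7.59% (TATAAA, given strand), 10.6% (GAGGAAG, a PU.1 core), 9.56% (TTGCNNAA, C/EBP), 6.75% (TGANTCA, AP-1) and 45.8% (GGGNNNNNCC, NF-kB), the last 4 on both strands. In the Il1a window GAGGAAG began at position -41, TATAAA at -32 and the AP-1 letters at -12, counted from the start. The Il1b window held TATAAA at -31. Start 2 of Il33 held the C/EBP letters at -85 and TATAAA at -29, start 1 held TATAAA at -203, start 1 of Il1rl1 held the C/EBP letters at -34, and start 2 of Il1rl1 held none of the 5. The genes themselves span chr2:129299610-129309972 (Il1a), chr2:129364570-129371139 (Il1b), chr19:29925114-29960718 (Il33) and chr1:40429570-40465415 (Il1rl1). No motif match overlapped one of another motif. All 10 genes were matched to the RefSeq table, with 15 windows in total. The NF-kB letters were found in 4 of the 15, windows of Il1rn, Il1r1 and Il1rap that are not shown. The matches describe letters and not binding.

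The control library held 10747 barcodes with 105367110 UMIs and the Smo cKO library 10512 with 112700220, of which 10057 and 9507 had at least 200 detected genes and under 10% mitochondrial UMIs. Median depth of these cells was 8367 and 9092 UMIs. Cells were placed in classes by marker genes, and a class name stands for the gate it passed: there were 6892 control and 5712 Smo cKO connective cells, 1403 and 1808 macrophages (or monocytes), 92 and 117 neutrophils, and 28 and 25 dendritic cells, while 850 and 761 cells passed no gate. In each of the 12 classes with at least 50 cells, the class markers were highest in their own class and none was at 0. The cells were gated by these same markers, so this is not an independent check of the class names. The libraries shared 613 barcodes, 486 of them with a more than 20-fold difference in depth, and the cells with these barcodes held 7.39% and 13.0% of the UMIs, so values without them are given where they matter. Smo itself was at 19.1 CPM (UMIs of a gene for each 1000000 UMIs of the class) in control and 12.4 CPM in Smo cKO connective cells, a log2 ratio of -0.62 (-0.74 to -0.51), although counts from transcript 3′ ends need not report the deleted segment. A tdTomato UMI was found in 0.725% and 2.12% of connective cells, too few for the recombined cells to be picked out.

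Some of the 10 genes belonged mainly to blood-derived cells, some to connective cells, and others were divided between them. Among classes with at least 50 cells and over both libraries, Il1b and Il1rn were at their highest in dendritic cells, neutrophils and macrophages, while macrophages held most of the sparse Il1a UMIs. Il33, Il1r1 and Il1rl1 came almost wholly from connective cells. Il1r2 was divided, at its highest level in dendritic cells and neutrophils but with its largest share of UMIs in connective cells. Il18 and Il18bp, at their highest level in macrophages, and Il1rap, in neutrophils, likewise had their largest share of UMIs in connective cells. For these 3 genes connective cells were at 6.03, 2.16 and 2.97 CPM. Erythroid cells, set as a background of free RNA for every gene, were at 7.01 (2.28 to 16.4), 5.61 (1.53 to 14.4) and 1.40 CPM (0.04 to 7.81). Those erythroid levels rest on 5, 4 and 1 UMIs. The connective levels lay within their intervals, and the part of free RNA in them was not tested.

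**Figure D1:**
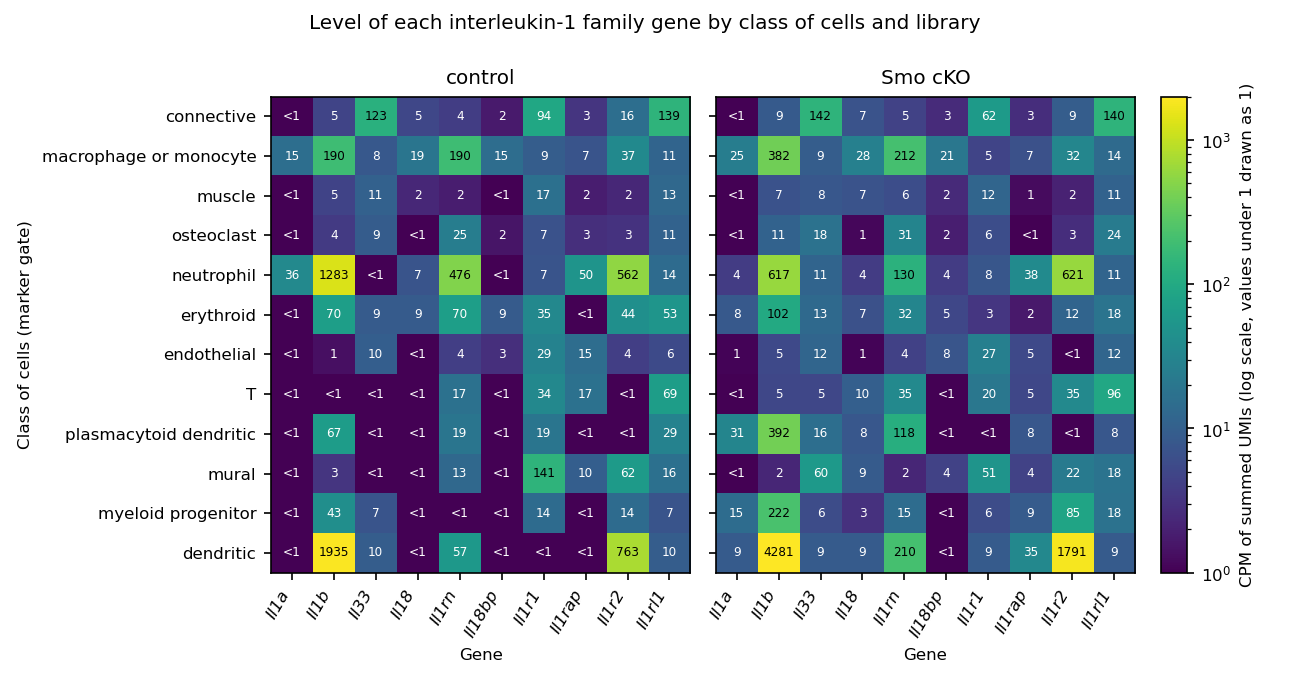
Level of each gene in CPM of summed UMIs (colour, log scale, with the rounded value in each square) for the 12 classes with at least 50 cells, control left and Smo cKO right. Il1b and Il1r2 are brightest in dendritic cells and neutrophils, Il33 and Il1rl1 in connective cells, and Il1r1 in mural cells (141 CPM) in the control and connective cells (62.4 CPM) in the Smo cKO.

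**Figure D2:**
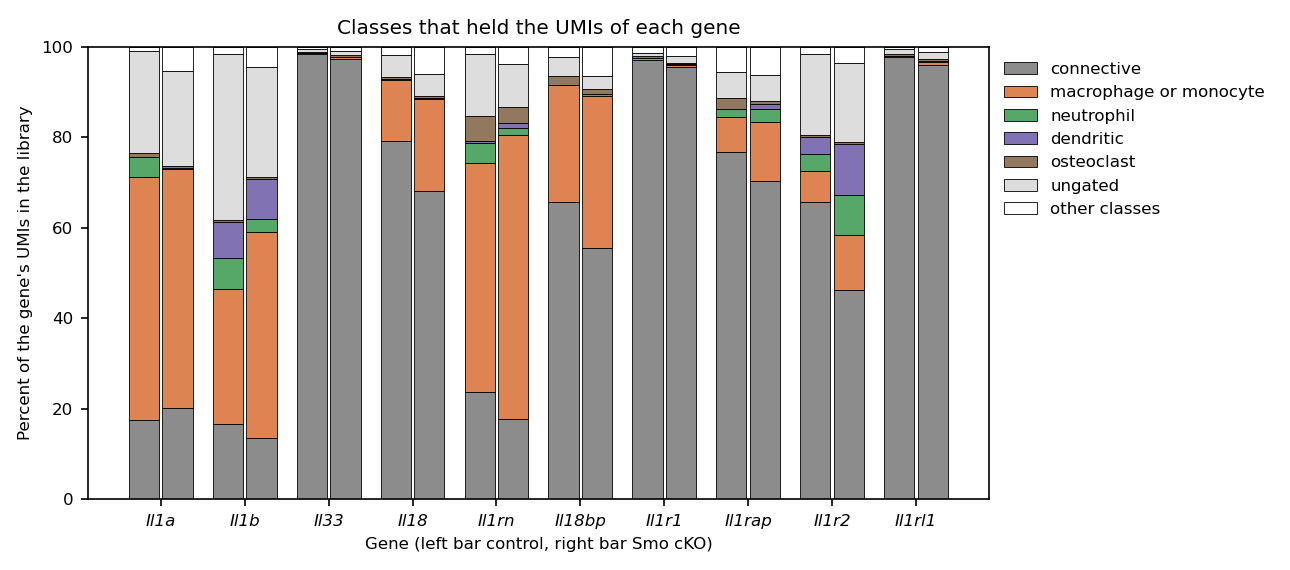
Percent of the UMIs of each gene held by each class, with the control as the left bar and the Smo cKO as the right bar of each pair. Connective cells held 98.4% and 97.3% of the Il33 UMIs, and macrophages 29.8% and 45.6% of the Il1b UMIs.

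Il1b, the ligand made by activated myeloid cells, was at 190 CPM in control macrophages (764 UMIs) and 382 CPM in Smo cKO macrophages (2564 UMIs). The log2 ratio was 1.01 (0.89 to 1.13), which is a 2-fold difference. Few cells carried much of it: 21 control and 78 Smo cKO macrophages with 10 or more UMIs held 46.2% and 68.8% of the macrophage UMIs. Over all kept cells Il1b was at 24.6 and 50.7 CPM, control first. In neutrophils, the first cells to arrive at a wound, the order of the libraries was the opposite: 1283 CPM in the control (178 UMIs) against 617 CPM in the Smo cKO (161 UMIs), a log2 ratio of -1.06 (-1.37 to -0.74). The neutrophil value was carried by 92 and 117 cells of low depth, with medians of 1121.5 and 1633 UMIs. When classes were taken from clusters in place of the gate, the neutrophil ratio was -0.11 (-0.36 to 0.15), so the difference in neutrophils rests on which cells are counted. The Smo cKO neutrophils also carried more of the granule genes Ngp, Ltf and Camp of immature neutrophils, at 52864 CPM summed over the 3 genes against 34164 CPM in the control. Retnlg, a marker of the neutrophil gate outside these 3, was higher as well, at 21634 CPM against 18387 CPM in the control. The part of these differences in that of Il1b was not tested.

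The macrophage ratio kept its sign under each of 11 other settings but ranged from 0.50, where a marker counted as found with 1 UMI, to 1.14. It was 0.98 without the shared barcodes, just under 2-fold. Among classes with at least 50 cells, dendritic cells had the highest level: 1935 CPM in the control (203 UMIs) against 4281 CPM in the Smo cKO (490 UMIs), a log2 ratio of 1.15 (0.91 to 1.39). These values come from 28 and 25 cells. In order of level over both libraries, dendritic cells were followed by neutrophils and macrophages, with intervals that did not overlap, while the macrophage interval overlapped that of plasmacytoid dendritic cells. The plasmacytoid dendritic level rests on very few cells: 7 UMIs in 2.38% of 42 control cells and 50 UMIs in 9.09% of 33 Smo cKO cells.

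The Il1b UMIs moved between classes as well. Macrophages held 29.8% (28.0 to 31.6) of them in the control and 45.6% (44.3 to 46.9) in the Smo cKO, and ungated cells 36.6% and 24.2%. Neutrophils held 6.93% and 2.86%. Macrophages also made up more of the Smo cKO library, at 19.02% of kept cells against 13.95% in the control. Their median depth was 3225 UMIs against 2497 in the control, so their share combines more and deeper cells with a higher level.

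Antigen-presenting cells marked the upper end of Il1b. Cells without a connective profile were divided by the summed level of H2-Aa, H2-Ab1, H2-Eb1 and Cd74, the MHC class II genes, at the valley of that level (21.4 UMIs per 10000), a division made after the data had been seen. The 677 control and 471 Smo cKO MHC class II-high cells were at 693 and 1531 CPM of Il1b and held 51.0% and 44.8% of the library's Il1b UMIs. MHC class II-low cells were at 67.7 and 124 CPM. Neutrophils, at 1283 and 617 CPM, were above the MHC class II-high cells in the control and below them in the Smo cKO. Within macrophages, the MHC class II-high cells were at 501 and 1340 CPM, a log2 ratio of 1.42 (1.27 to 1.58), and the MHC class II-low cells at 93.3 and 232 CPM, a log2 ratio of 1.31 (1.127 to 1.502). Both ratios exceeded the one over all macrophages, since the high cells were 369 of the control but only 259 of the Smo cKO macrophages in this division. Erythroid cells, set as a background class, were at 70.1 CPM (30.3 to 138) and 102 CPM (77.9 to 131) of Il1b. The control MHC class II-low macrophages lay within the control erythroid interval, and the MHC class II-low cells as a whole within both. The part of free RNA in these levels was not tested.

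The share of positive cells differed less than the level did. After each cell was thinned to 1000 UMIs, which leaves out shallower cells, Il1b was found in 10.1% of 1323 control and 13.2% of 1759 Smo cKO macrophages, a difference of 3.19 percentage points (0.89 to 5.44). Unthinned, the shares were 13.9% and 20.5% at median depths of 2497 and 3225 UMIs. Connective cells were set as a background class for free RNA, on the assumption that they lack this gene. Their thinned shares were 0.586% and 0.691% at medians of 10966.5 and 13777.5 UMIs. Their Il1b was uneven: 7 control and 15 Smo cKO connective cells with 10 or more UMIs held 24.3% and 39.1% of the connective UMIs. Whether these shares reflect free RNA was not tested. In erythroid cells, another background class with medians of 3250 and 4005 UMIs, Il1b was found in 2 of 25 and 6 of 123 cells, and the control interval reached 26.03%, above the macrophage share. In neutrophils the thinned shares were 27.8% and 25.5%, a difference of -2.25 points (-17.5 to 11.8). There were 67 control and 171 Smo cKO cells with 10 or more Il1b UMIs, and they held 41.4% and 65.2% of the library's Il1b UMIs. The highest count in a cell was 40 (control) and 216 (Smo cKO).

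**Figure D3:**
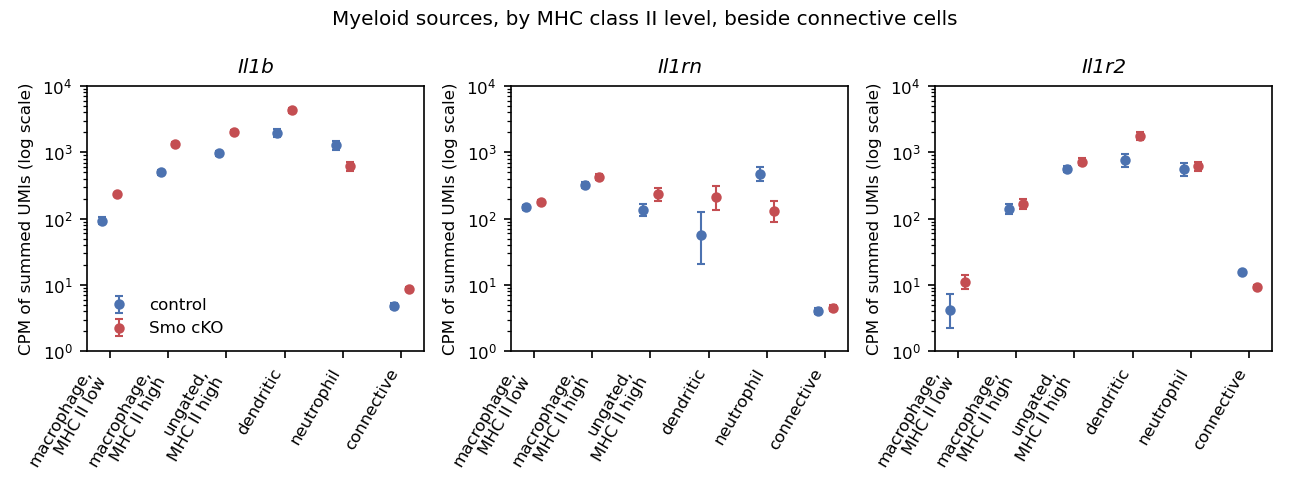
Il1b, Il1rn and Il1r2 in CPM of summed UMIs (log scale) in macrophages and ungated cells by MHC class II level, and in dendritic, neutrophil and connective cells. Points are libraries and bars 95% counting intervals. Il1b is higher in the Smo cKO (red) in each group but neutrophils, where the control is at 1283 and the Smo cKO at 617 CPM.

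Il1a, the ligand that is active without cleavage, was sparse. The control library held 115 of its UMIs and the Smo cKO library 318. In macrophages it was at 15.4 and 25.0 CPM, a log2 ratio of 0.70 (0.27 to 1.15), and macrophages held 53.9% and 52.8% of its UMIs. Only 5 and 1 of its UMIs were in neutrophils. In macrophages thinned to 1000 UMIs, Il1a was found in 6.02% of Il1b-positive and 1.26% of Il1b-negative control cells, and in 9.87% and 1.57% of those in the Smo cKO, so within each library Il1a was more frequent in Il1b-positive macrophages.

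In connective cells Il1b was low, at 4.80 CPM in the control (428 UMIs) and 8.63 CPM in the Smo cKO (764 UMIs). The 171 control and 152 Smo cKO connective cells with 3 or more macrophage markers were at 23.4 and 96.4 CPM. The other connective cells were at 4.41 and 7.004 CPM, a log2 ratio of 0.67 (0.48 to 0.86). Il1b in connective cells thus moved in the same direction as in macrophages, and the part of macrophage RNA in it was not tested.

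Il1rn, the receptor antagonist, was at 190 CPM in control macrophages (767 UMIs) and 212 CPM in Smo cKO macrophages (1420 UMIs). The log2 ratio was 0.15 (0.02 to 0.28), and it was -0.024 where a marker counted as found with 1 UMI. Macrophages held 50.8% and 62.9% of the Il1rn UMIs. For each Il1b UMI, macrophages thus held 1.00 Il1rn UMIs (0.91 to 1.11) in the control and 0.55 (0.52 to 0.59) in the Smo cKO. The same count was 0.83 and 0.52 in connective cells, and 0.37 and 0.21 in neutrophils. Connective cells were set as a background class for both genes, and the part of macrophage RNA in their count was not tested. In these 3 classes the count was lower in the Smo cKO, with overlapping intervals in neutrophils, whereas in dendritic cells it was 0.030 and 0.049, also with overlapping intervals. In macrophages this went with more Il1b, and in neutrophils with lower levels of both genes.

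In neutrophils Il1rn was at 476 CPM in the control (66 UMIs) and 130 CPM in the Smo cKO (34 UMIs), a log2 ratio of -1.87 (-2.51 to -1.25). Under the other settings this ratio stayed between -1.97 and -1.34. The control level was uneven: 1 of the 92 neutrophils held 11 of the 66 UMIs, while no Smo cKO neutrophil held more than 3. The thinned share of neutrophils with Il1rn was 22.2% and 10.6%, a difference of -11.6 points whose interval reached 0.38. In dendritic cells Il1rn had 6 and 24 UMIs, at 57.2 and 210 CPM. Osteoclasts, the bone-resorbing cells, were at 25.1 and 30.9 CPM. Over both libraries they were at 27.7 CPM, against 37.9 CPM (25.0 to 55.1) in erythroid cells, a background class, from 27 UMIs. The part of free RNA in the osteoclast level was not tested. Macrophages with Il1b also held Il1rn more often than those without: 25.6% against 15.04% in the control and 28.8% against 14.6% in the Smo cKO after thinning.

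Il33, the alarmin ligand, was at 123 CPM in control connective cells (10941 UMIs) and 142 CPM in Smo cKO connective cells (12565 UMIs). The log2 ratio was 0.21 (0.17 to 0.25), and 0.093 (-0.079 to 0.26) with an upper limit of 2000 detected genes, the study's own filter, which leaves 1636 and 942 connective cells. The next class in order of level among those with at least 50 cells, mural cells, had 0 UMIs in the control, where 3 counts would be 9.83 CPM, and 27 UMIs in 3 of 30 Smo cKO cells (60.3 CPM). Macrophages were at 8.19 and 9.39 CPM. Il33 was found in 10.1% and 11.3% of thinned connective cells, against 0 of 54 and 1 of 94 neutrophils, the background class for this gene. The level was not even: the connective cells with 10 or more UMIs numbered 242 and 348 and held 32.2% and 44.8% of the connective UMIs.

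Il18, a ligand of macrophages and epithelia, was at 19.1 CPM in control macrophages (77 UMIs) and 27.7 CPM in Smo cKO macrophages (186 UMIs), a log2 ratio of 0.54 (0.14 to 0.94). Connective cells were lower, at 5.08 and 6.99 CPM, but by their number and depth held 79.2% and 68.1% of its UMIs. Its binding protein gene, Il18bp, was at 15.1 and 20.6 CPM in macrophages (61 and 138 UMIs), a log2 ratio of 0.44 with an interval that included 0. In connective cells Il18bp was at 1.75 and 2.57 CPM, a log2 ratio of 0.56 (0.26 to 0.86) that turned to -0.87 (27 and 7 UMIs) under the limit of 2000 genes. Both were sparse, with at most 5 Il18 UMIs in a cell.

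Il1r1, the signalling receptor, was lower in the Smo cKO in connective cells. It was at 93.9 CPM (91.9 to 95.9) in the control, from 8371 UMIs, and at 62.4 CPM (60.8 to 64.1) in the Smo cKO, from 5527 UMIs. The log2 ratio was -0.59 (-0.64 to -0.54) and ranged from -1.14 to -0.58 over 11 other settings, -1.14 being that with at most 2000 detected genes. Connective cells held 97.2% and 95.6% of the Il1r1 UMIs. Mural cells, the contractile cells around vessels, were at 141 CPM (43 UMIs) and 51.4 CPM (23 UMIs), a log2 ratio of -1.46 (-2.25 to -0.69), and their interval over both libraries overlapped that of connective cells. Endothelial cells were at 29.0 and 26.9 CPM. In thinned connective cells the share with Il1r1 was 9.65% and 6.37%, a difference of -3.28 points (-4.24 to -2.31). Macrophages stood at 1.21% and 0.569%, and neutrophils, its background class, at 0 of 54 and 2 of 94 cells. The few connective cells with a tdTomato UMI, 50 and 121, had Il1r1 at 104 and 62.8 CPM, a log2 ratio of -0.73 (-1.13 to -0.33), and the connective cells without one had a ratio of -0.59.

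Il1rap, the shared co-receptor, was sparse in every class, with 373 UMIs in all in the control library and 342 in the Smo cKO library. It was at 3.21 and 2.72 CPM in connective cells, a log2 ratio of -0.24 (-0.49 to 0.01), and at 50.5 CPM (7 UMIs) and 38.3 CPM (10 UMIs) in neutrophils. No cell held more than 2 UMIs. In thinned connective cells it was found in 0.586% and 0.291%, a difference of -0.295 points (-0.540 to -0.054). The connective clusters described further on had unlike ratios, -0.69 (-1.14 to -0.24) in cluster 2 and 1.22 (0.18 to 2.29) in cluster 6, the latter from 15 and 20 UMIs.

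Il1r2, the decoy receptor, was at 562 CPM in control neutrophils (78 UMIs) and 621 CPM in Smo cKO neutrophils (162 UMIs), a log2 ratio of 0.14 (-0.26 to 0.55). Over the other settings this ratio ranged from -0.16 to 0.76. The upper value, 0.76 (0.39 to 1.14), came with clusters in place of the gate, at 279 and 473 CPM. Among neutrophils thinned to 1000 UMIs, 14 of 54 (25.9%) in the control and 42 of 94 (44.7%) in the Smo cKO held Il1r2, a difference of 18.8 points (2.56 to 32.8). In gated neutrophils the share and the level thus moved by different amounts, and the level depended on which cells were counted. In dendritic cells Il1r2 was at 763 CPM (80 UMIs) and 1791 CPM (205 UMIs), a log2 ratio of 1.23 (0.85 to 1.62). Most macrophage UMIs of this gene lay in MHC class II-high cells (135 and 152 UMIs, 142 and 166 CPM), against 13 and 65 UMIs (4.24 and 11.3 CPM) in MHC class II-low cells. The log2 ratio was 0.22 (-0.12 to 0.57) in the high and 1.41 (0.54 to 2.39) in the low cells. The ratio over all macrophages, -0.18 (-0.49 to 0.13), was below both and changed sign between settings. The high cells were 369 of the control but only 259 of the Smo cKO macrophages.

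Connective cells carried Il1r2 at a lower level, 15.7 CPM in the control (1395 UMIs) and 9.46 CPM in the Smo cKO (838 UMIs). The log2 ratio was -0.73 (-0.85 to -0.60), -1.59 with at most 2000 genes and -0.46 where a marker counted as found with 1 UMI. Muscle cells, at 2.32 and 2.07 CPM, and osteoclasts, at 3.07 and 2.67 CPM, were lower. Erythroid cells, the background class set for every gene, were not: 16.8 CPM (8.70 to 29.4) from 12 UMIs over both libraries, against 12.6 CPM in connective cells. After thinning, 1 of 25 and 1 of 123 erythroid cells held Il1r2, against 1.88% and 0.982% of connective cells. Connective cells were also set beforehand as a background class for Il1r2, and the part of free RNA in their level was not tested. Connective cells held 65.7% and 46.3% of the Il1r2 UMIs, but 24.8% and 3.99% with at most 2000 genes. After thinning, Il1r2 was found in 4.32% of Il1r1-positive and 1.62% of Il1r1-negative control connective cells, and in 7 of 350 and 0.913% in the Smo cKO, where the intervals overlapped. The receptor and its decoy were thus lower together in the Smo cKO, and connective cells held 0.17 (0.16 to 0.18) and 0.15 (0.14 to 0.16) Il1r2 UMIs per Il1r1 UMI.

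Il1rl1, the interleukin-33 receptor, was at 139 CPM in control connective cells (12398 UMIs) and 140 CPM in Smo cKO connective cells (12372 UMIs), a log2 ratio of 0.01 (-0.03 to 0.04). This value did not hold across settings: it was -0.88 (-1.07 to -0.69) with at most 2000 detected genes and -0.16 where each cell weighed the same. Counts summed for each gene do not separate the membrane form from the soluble form, which acts as a decoy. In the 50 and 121 connective cells with a tdTomato UMI, Il1rl1 was at 198 and 131 CPM, a log2 ratio of -0.60 (-0.88 to -0.31). In those without one the ratio was 0.014 (-0.022 to 0.051). Connective cells held 97.7% and 96.1% of the UMIs. T cells came next in order, at 68.7 CPM (4 UMIs) and 95.9 CPM (19 UMIs). T cells with 2 or more of the markers Foxp3, Il2ra, Ctla4, Gata3, Rora and Areg numbered 4 and 13. They held 3 and 12 of these UMIs, which lay in only 1 and 2 cells. The other 28 and 83 T cells held 1 and 7 UMIs, in 1 and 6 cells. The 4 mast cells or basophils of the Smo cKO held 7 UMIs and the 2 of the control 0.

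Like Il33, Il1rl1 was concentrated in some connective cells. The 353 control and 395 Smo cKO cells with 10 or more UMIs held 44.9% and 53.3% of the connective UMIs, with up to 84 and 73 in a cell. In thinned connective cells Il1rl1 was found in 10.8% and 9.49%, and in neutrophils, its background class, in 2 of 54 and 2 of 94. Il33-positive connective cells held Il1rl1 more often than Il33-negative ones: 15.1% against 10.4% in the control and 16.3% against 8.63% in the Smo cKO. The receptor transcript was thus more frequent in cells with the ligand transcript in both libraries.

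**Figure D4:**
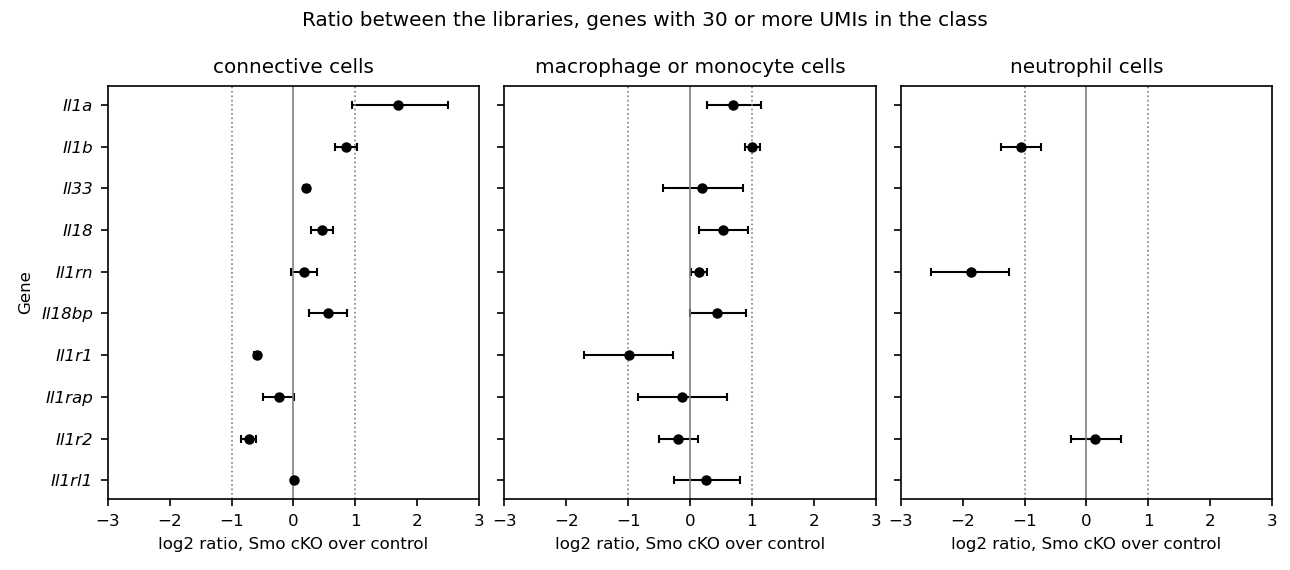
Log2 ratio of the Smo cKO over the control level for genes with at least 30 UMIs in the class, with 95% counting intervals. Dotted lines mark 2-fold. In connective cells Il1r1 and Il1r2 lie left of 0 at -0.59 and -0.73 and Il1rl1 lies at 0.01, while Il1b lies at 1.01 in macrophages and -1.06 in neutrophils.

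Read against all genes at 10 CPM or more, few of the 10 were 2-fold apart. In connective cells 0 of the 4 that reached 10 CPM were, where 1.21% of 7291 genes were. In macrophages 1 of 7 was, Il1b, where 1.97% of 6997 genes were, and 0 of 7 without the shared barcodes. In neutrophils 3 of 7 were (Il1a, Il1b and Il1rn, each lower in the Smo cKO), where 28.2% of 6337 genes were. With so many genes 2-fold apart in sparse neutrophil counts, this count says little of the 3 genes, and 2 were left relative to the median gene of the class, itself at -0.33.

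The connective cells were not alike, and the differences between libraries were not even over them. In clusters built without the 10 genes, cluster 1 (led by Inhba, Tnc and Timp1) held 2705 control and 2533 Smo cKO cells, cluster 2 (Sfrp1, Sfrp4 and Mfap4) 2874 and 1923, and cluster 6 (Ibsp, Fmod and Acan) 526 and 305. Cluster 14 (Serpinb2 and Dlk1) held 3 control and 120 Smo cKO cells, and a cluster mostly of 1 library may be that library and not a type. Il1r1 was lower in the Smo cKO in each of the first 3: at 62.4 and 51.1 CPM in cluster 1, at 159 and 87.1 CPM in cluster 2, and at 24.0 and 17.0 CPM in cluster 6. The log2 ratio was -0.87 (-0.94 to -0.80) in cluster 2, and over connective cells without cluster 2 it was -0.22 (-0.29 to -0.15). The connective value of Il1r1 therefore rests largely on cluster 2. Il1r2 was lower as well in cluster 1, at 7.79 and 5.15 CPM, and in cluster 2, at 28.9 and 16.4 CPM. Its connective ratio was -0.43 without cluster 2. In cluster 6 it did not follow Il1r1, at 4.72 and 4.61 CPM, a log2 ratio of -0.03 (-0.93 to 0.82).

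Il1rl1 had no common direction over these clusters. It was at 167 and 161 CPM in cluster 1, a log2 ratio of -0.055 (-0.10 to -0.01). In cluster 2 it was at 136 and 69.9 CPM, a log2 ratio of -0.96 (-1.04 to -0.88). In cluster 6 it was at 28.5 and 41.5 CPM, a log2 ratio of 0.54 (0.24 to 0.84). Cluster 14 stood apart at 842 CPM in the Smo cKO, with 1778 UMIs. Without cluster 14 the connective ratio of Il1rl1 was -0.18 (-0.22 to -0.14), and without cluster 2 it was 0.25 (0.21 to 0.29), so the near-equal connective level is the sum of unlike clusters. Il33 varied less, at log2 ratios of 0.18, -0.13 and 0.42 in clusters 1, 2 and 6. It was at 374 CPM in cluster 14, without which the connective ratio was 0.15 (0.11 to 0.19).

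**Figure D5:**
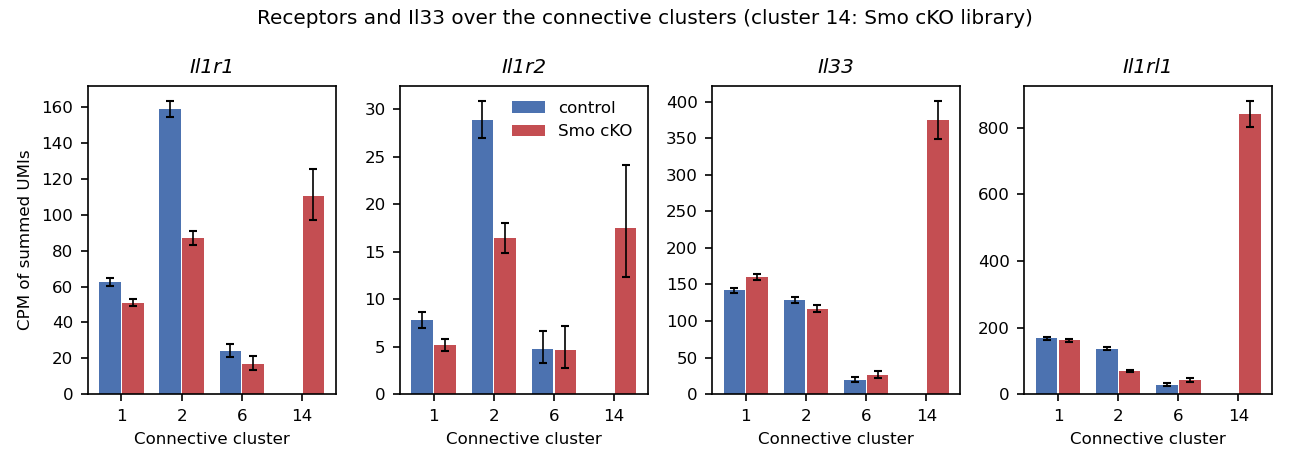
Il1r1, Il1r2, Il33 and Il1rl1 in CPM of summed UMIs in 4 connective clusters (control blue, Smo cKO red, bars with 95% counting intervals, and cluster 14 drawn for the Smo cKO only). Il1r1, Il1r2 and Il1rl1 are lower in the Smo cKO in cluster 2, and Il33 and Il1rl1 are highest in cluster 14.

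Genes around the family were counted, by the same rule of 2-fold at 10 CPM or more, from lists written with earlier results of these data known. Of 17 genes known to respond to interleukin-1 in fibroblasts, 15 reached 10 CPM in connective cells, and 3 of these were 2-fold apart (1 higher and 2 lower in the Smo cKO), where 1.21% of all genes were 2-fold apart. The neutrophil-attracting chemokine genes Cxcl1 and Cxcl2 were at 1457 and 2068 CPM and at 468 and 683 CPM, control first, and Nfkbia, the NF-kB inhibitor, at 818 and 1214 CPM. Cxcl5 was at 290 and 324 CPM, Ptgs2, a prostaglandin synthase, at 289 and 328 CPM, and Nfkbiz at 143 and 167 CPM. Chosen after their values were seen, the 3 genes 2-fold apart were the higher Ccl20, at 8.86 and 24.7 CPM, and the lower Saa3, an acute phase gene, at 173 and 61.1 CPM, and Mmp3, a stromelysin, at 19.4 and 5.32 CPM. The list thus held members in both directions, with a median ratio of 0.23 over the 15 at 10 CPM or more, beside 0.02 over all genes.

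In macrophages 3 of 14 responsive genes were 2-fold apart (2 higher and 1 lower), where 1.97% of all genes were 2-fold apart. Cxcl2 was at 2981 and 4120 CPM, Nfkbia at 1157 and 1351 CPM, and Cxcl1 at 595 and 954 CPM, while Tnfaip3 was at 174 and 164 CPM. The 3, chosen after their values were seen, were Vcam1, an adhesion molecule, at 144 and 41.3 CPM, Csf3, the granulocyte growth factor gene, at 5.21 and 11.03 CPM, and Saa3, lower in connective cells, at 44.4 and 99.7 CPM. The median ratio of the list was 0.18, beside -0.06 over all genes. In neutrophils 5 of 12 were 2-fold apart (2 higher and 3 lower), where 28.2% of all genes were 2-fold apart, and Cxcl2 was at 11395 and 2863 CPM.

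Of 16 genes that carry the receptor signal, 0 of the 11 at 10 CPM or more were 2-fold apart in connective cells and 0 of 14 in macrophages. Over all genes the shares were 1.21% and 1.97%. The median ratios were -0.080 and -0.33, beside 0.02 and -0.06 over all genes. In neutrophils 1 of 14 was 2-fold higher and 7 were lower, where 28.2% of all genes were 2-fold apart. There, 0 genes of the list reached 30 UMIs. The most abundant, Nfkb1, was at 159 and 157 CPM in connective cells and at 148 and 111 CPM in macrophages. Irak3, a brake on the pathway, chosen after its value was seen, was at 22.1 and 12.7 CPM in connective cells. Of the inflammasome genes, whose products cleave pro-interleukin-1 beta and pro-interleukin-18, 0 of 3 were 2-fold apart in connective cells and 0 of 6 in macrophages. Their median ratios were 0.47 and 0.20, to be read beside the same shares and medians over all genes. In neutrophils 1 of 6 was 2-fold higher and 2 were lower, with only 1 gene of the list at 30 UMIs or more. Pycard, the inflammasome adaptor, was at 143 and 177 CPM in macrophages, Nlrp3, the sensor, at 113 and 102 CPM, and Casp1, the protease, at 18.9 and 28.2 CPM.

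The genes most like the 10 over the 12 classes were ranked by Pearson r of log2(CPM + 10), over 5137 genes, both libraries summed. The classes share libraries and differ in depth, so these values only describe. Il1b was most like Plek (0.95), Cd14 (0.95), Alox5ap (0.94), Tnip3 (0.92) and Rassf2 (0.92). Il1rn was most like Adam8 (0.98), Ccl6 (0.96), Lilr4b (0.96), Fth1 (0.95) and Ptafr (0.95), and Il1r2 like Ifitm1 (0.92), Plbd1 (0.90), Gm34084 (0.89), Plscr1 (0.88) and Lmnb1 (0.88). Il33 was most like the collagen genes Col3a1 (0.97), Col1a2 (0.96) and Col16a1 (0.95), with Cyp1b1 (0.95) and Twist2 (0.95). Il1r1 was most like Pcdh19 (0.96), C1qtnf6 (0.96), Hoxb2 (0.95), Loxl2 (0.95) and Htra1 (0.94), and Il1rl1 like Aldh1a3 (0.95), Dkk3 (0.92), Dpt (0.89), Tnfaip6 (0.87) and Gm12840 (0.86). Among the 10, Il1b and Il1rn were alike at 0.82, and Il33 and Il1r1 at 0.77.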

How the data were processed

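Both libraries were made on the 10x Chromium platform from calluses of 3 pooled animals each. Cell Ranger 3.0.2 with the mm10 reference was used by the authors, and what they deposited are raw counts of UMIs for each gene and barcode, not normalized. Cells with 200 or more detected genes and under 10% of UMIs on the 13 mt- genes were kept; the upper limit of 2000 genes in the study's methods was an alternative, since 58.0% and 59.4% of kept cells lie above it. A cell was given to whichever class had most of its list found, as a share and with at least 3 markers, where found means above the marker's mean level over cells; connective cells were set by the valley of the summed connective level (55.2 UMIs per 10000). These definitions were set after seeing the data. Of 140 markers listed, 1 is missing from the features. No doublet caller was run; leaving out cells with 3 or more markers of another broad class was an alternative.

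UMIs were summed per class and library and divided by the class total (CPM). Intervals are exact Poisson (levels), exact conditional (ratios), Clopper-Pearson (shares) and Newcombe (differences), at 95%, and cover counting error only; a count of 0 allows 3 counts. UMIs are molecules, but cells of 1 library are not replicates, so no p-value was computed and nothing was tested between genotypes. Thinning drew 1000 UMIs per cell without replacement. A gene was called at 2-fold with 10 CPM in at least 1 library. Clusters (2000 variable genes, of which 6 were members and were left out, 30 components, 20 neighbours, Louvain at resolution 0.4) gave 19 groups. The counting rules were tested on simulated data.

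The members and gene lists were chosen with earlier results of these data known. Named genes are the 10 members, up to 6 of each list by abundance among those with 30 UMIs, the 5 genes most similar to each of 6 members among genes with 50 CPM in a class, and Smo and tdTomato, with exceptions marked in the text. Alternatives were gene and mitochondrial limits, gates with 2 or 4 markers, clusters in place of the gate, scaling by the median gene, equal weight per cell, thinning to 500 UMIs or none, and floors of 20 and 50 CPM. Leaving out shared barcodes, counting a marker as found with 1 UMI, the MHC class II division, the neutrophil granule genes and the connective cells without single clusters were added after seeing the data. Promoter windows and positions are from RefSeq and GENCODE on GRCm38. Python 3.11.15, numpy 2.4.6, scipy 1.17.1, pandas 2.3.3, scanpy 1.11.5, python-igraph 0.11.9, scikit-learn 1.9.0 and matplotlib 3.10.9 were used.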

Additional observations from a re-analysis of the deposited data

Results flagged for a closer look

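Ratios with opposite signs in related cells of the same libraries are listed here as log2 values of the Smo cKO over the control. With 1 library per genotype, none of these differences was tested.

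In macrophages and neutrophils, Il1b was at 1.01 and -1.06, Il1a at 0.70 and -3.23, and Il1rn at 0.15 and -1.87. The neutrophil value of Il1a rests on 5 and 1 UMIs, and that of Il1b was -0.11 where clusters took the place of the gate.

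In connective clusters 1, 2 and 6, Il1rl1 was at -0.055, -0.96 and 0.54, Il33 at 0.18, -0.13 and 0.42, and Il1rap at -0.28, -0.69 and 1.22. The Il1rap value in cluster 6 rests on 15 and 20 UMIs.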

How the results depend on the processing

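No paired analysis was possible because each genotype has 1 library. Of 455 values under alternatives, 373 moved by less than the counting interval of the reported value, 82 moved more, and of 88 ratios that answer a comparison 70 stayed within it and 18 did not; where no cause is given below, the cause was not tested. With at most 2000 genes, which keeps fewer and shallower cells, the connective log2 ratios were -1.14 (Il1r1), -1.59 (Il1r2), -0.88 (Il1rl1) and 0.093 (Il33), and Il1b was at 1.14 in macrophages and -1.39 in neutrophils. With equal weight per cell they were -0.73 (Il1r1), -0.16 (Il1rl1) and 0.13 (Il33). Without shared barcodes Il1rl1 was at 0.047, and 0 members of the family were 2-fold apart in macrophages. With a marker found at 1 UMI, Il1r2 was at -0.46 in connective cells, and Il1b at 0.50 and Il1rn at -0.024 in macrophages. With 4 markers, Il1b was at 0.87 in macrophages and -1.54 in neutrophils, and with clusters at 0.85 and -0.11; relative to the median gene it was -0.73 in neutrophils. The share of Il1b UMIs in macrophages (29.8% and 45.6%) was 27.4% in the control with at most 2000 genes, 24.3% and 35.0% with 4 markers, 34.7% and 49.4% with 2 markers, and 38.1% and 50.3% with clusters, and 48.3% in the Smo cKO without cells holding markers of another class. Of the thinned differences, that of Il1r1 was -1.77 points at 500 UMIs and -7.78 unthinned, that of Il1b 6.57 unthinned, and that of Il1rl1 2.67 unthinned, of the opposite sign. Depth limits Il1a, Il1rap, Il18 and Il18bp and everything in neutrophils and dendritic cells.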

Other observations

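Of the remaining family genes, Il1rl2, the receptor for the interleukin-36 cytokines, was a connective gene, at 16.4 CPM (control) and 14.01 CPM (Smo cKO). Il36g, which the feature list gives as Il1f9, was a neutrophil gene, at 317 CPM (44 UMIs) and 234 CPM (61 UMIs), a log2 ratio of -0.44 (-1.02 to 0.15). Il18r1, the interleukin-18 receptor, was at 155 CPM (9 UMIs) and 90.8 CPM (18 UMIs) in T cells.

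Il1r2, Il1r1, Il1rl2, Il1rl1, Il18r1 and Il18rap lie in this order on the plus strand of chromosome 1 of GRCm38, between positions 40074079 and 40551705. Their connective log2 ratios, in the same order, were -0.73, -0.59, -0.23, 0.01, 0.85 and -0.07, with 43 and 77 UMIs behind the value for Il18r1.

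Cluster 11, led by H2-Eb1, H2-Aa, H2-Ab1, Cd74 and Ccr7, held 229 control and 145 Smo cKO cells, of which no gated class made up most. Il1b was there at 1149 and 2708 CPM, a log2 ratio of 1.24 (1.12 to 1.35), Il1r2 at 646 and 943 CPM, and Il1rn at 86.0 and 236 CPM.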
